A study of Homo sapiens with 6 samples.

Results

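Peroxisome genes were followed in human neurons with and without PEDS1, the desaturase that forms the vinyl ether bond of plasmalogens. The 33 genes, picked by name from 16625 genes in the expression table, comprise 14 PEX genes, which build the organelle, and 19 genes for its membrane transporters and enzymes. All 33 were present in the table and were tested, and 30 of them had a mean normalized count of 100 or more.

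The neurons were made from lines derived from UCSFi001-A, an established human induced pluripotent stem cell line, by switching on NGN2, a transcription factor that drives stem cells into neurons, from a doxycycline-inducible copy at the AAVS1 locus. Both groups carried that copy and received doxycycline, and by the design text the neurons were 10 to 14 days old. The control group was 3 libraries from 1 control line and the knockout group 3 libraries from 1 line labelled PEDS1 knockout, so the genotype and the history of that line cannot be told apart. Whether replicates were separate cultures is not stated in the labels, and p-values therefore reflect library-to-library spread, possibly only technical.

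Peroxisomes shorten very-long-chain and branched fatty acids, break down hydrogen peroxide and carry out the opening steps of ether lipid synthesis, the route that PEDS1 completes in the endoplasmic reticulum. Their matrix proteins are made in the cytosol, recognised by the receptors PEX5 and PEX7, passed through a docking complex and released inside. The receptor is then ubiquitinated by RING proteins and pulled back out by an ATPase that holds PEX6. PEX3, PEX16 and PEX19 place membrane proteins, and the PEX11 proteins elongate the organelle before it divides. Inherited defects of this machinery or of fatty acid import disturb brain development and myelin.

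The libraries held 17996634 to 44573013 reads in the table, and all 6 share 1 labelled batch. PEDS1 itself was at 1360, 1347 and 1399 normalized counts in the controls and at 836, 765 and 1349 in knockout replicates 1, 2 and 3. The library labelled PEDS1 knockout replicate 3 was therefore at the control level for PEDS1 RNA, unlike knockout replicates 1 and 2. RNA level alone does not show whether a library carries the edit, and the cause was not tested. Over all 3 libraries the log2 fold change of PEDS1 was -0.52 ± 0.17 (SE, limma adjusted p = 0.0725), and it was -0.77 without that library (adjusted p = 0.000147). Of 10 neuron markers, summed at 225166 to 239809 normalized counts in the controls and 268613 to 276867 in the knockouts, 2 rose (ELAVL4 and NEFL), 2 fell (TUBB3 and RBFOX3) and 6 did not pass. TUBB3 had the lowest counts of the 10, with a control mean of 255 beside 40704 for MAP2, and the reason was not tested. Of the 7 pluripotent stem cell markers 2 were measured, of which LIN28A rose, from 318, 321 and 339 to 652, 624 and 812. DPPA4 did not pass, with means of 41.1 and 45.2 (log2 fold change 0.13, limma adjusted p = 0.725). The sums, mostly LIN28A, were 354.8 to 388 against 660.0 to 856. The sums of 5 of 6 progenitor and cell cycle markers were 678 to 714 against 708 to 764, where PAX6 and TOP2A rose and SOX2 fell. Of 6 mesenchymal markers 3 were measured and COL1A2 rose, with sums of 49.998 to 61.9 against 51.0 to 121. Of 6 astrocyte markers 3 were measured, with sums of 6085 to 6886 against 5379 to 8685, and 0 passed with limma, with edgeR or at an unadjusted p under 0.05. The 5 microglia markers were not analysed here. The part of these differences in the results below was not tested.

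Of the 33 genes 6 passed the test. ABCD2, ABCD3 and PEX19 rose, and IDH1, PEX6 and PXMP2 fell, with limma adjusted p under 0.05 over all 16625 genes. That is 18.2% of the genes, against 13.6% of all genes tested, 5.95% higher and 7.69% lower. The share is near the background. The 33 log2 fold changes ran from -0.60 to 0.74 with a median of 0.01, and the median over all genes was -0.01. Their median absolute log2 fold change was 0.156, against 0.186 over all genes. By the libraries themselves, 15 of the 33 genes (45.5%) had groups that did not overlap, 9 higher and 6 lower in the knockout, against 37.1% of all genes. In bulk RNA, fewer cells that express a gene and less of its RNA per cell cannot be told apart.

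Of 14 PEX genes 1 rose, 1 fell and 12 did not pass (14.3% called), and of 19 transporter and enzyme genes 2 rose, 2 fell and 15 did not pass (21.1% called). The summed normalized counts of the PEX genes were 15359 to 15501 in the controls and 15780 to 16826 in the knockouts, and those of the other 19 genes were 28566 to 30042 and 26865 to 28313. These sums lean on the most abundant genes, and neither pair of ranges overlapped. In the sum of the 19 genes IDH1 alone held 10639 to 11934 in the controls and 8829.5 to 9935 in the knockouts. Its fall was large enough to set the direction of that sum. The sums over all genes did not overlap either, at 2.733e+07 to 2.752e+07 in the controls and 2.768e+07 to 2.860e+07 in the knockouts. Those over the 33 genes together, 44067 to 45401 and 43440.5 to 44093, did overlap. Fewer genes passed without some libraries: 1 of 33 (ABCD2) without control replicate 1 or without control replicate 2, where 3.75% and 3.5% of all genes passed, and 3 without knockout replicate 2, where 9.08% did. When the library labelled PEDS1 knockout replicate 3 was left out, 5 genes were higher and 3 lower, against 21.5% of all genes called, 10.4% higher and 11.1% lower.

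**Figure D1:**
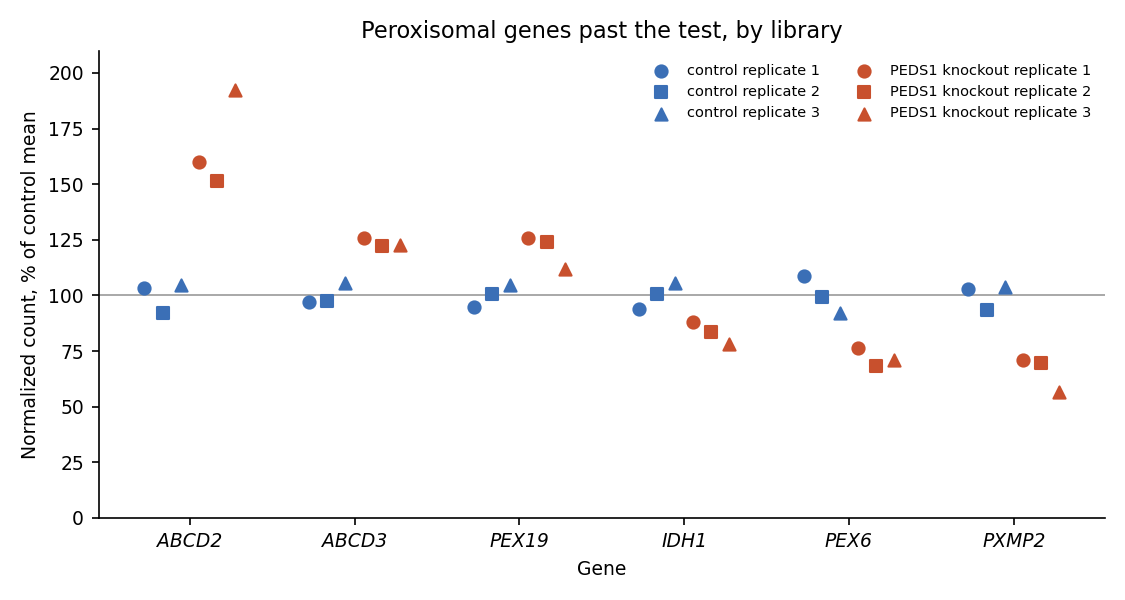
Normalized count of the 6 genes that passed the test, as a percent of the gene's control mean (vertical axis, from 0), with 1 point for each library. For every gene the 3 knockout points lie on 1 side of the 3 control points, and ABCD2 stands farthest from the line at the control mean.

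The receptors for matrix proteins gave no call. PEX5, which binds the carboxy-terminal import signal and so carries most matrix enzymes, was at 2798, 2771 and 2704 normalized counts in the controls and 2554, 2757 and 2818 in the knockouts. The ranges crossed, and the log2 fold change was -0.03 with a 95% interval of -0.18 to 0.13. PEX7, which carries the few enzymes with an amino-terminal signal, including the ether lipid enzyme AGPS, was at 203, 187 and 197 against 235, 230.3 and 186 (log2 fold change 0.14, limma adjusted p = 0.429). Knockout replicate 3 lay below every control there, while the other knockout libraries lay above. PEX5L, a brain relative of PEX5 better known for binding HCN ion channels, was at 2398, 2453 and 2648 against 2840.1, 2765 and 3485. Its groups did not overlap, with the library labelled knockout replicate 3 highest, but the test was not passed (log2 fold change 0.27, limma adjusted p = 0.0853). Of these 3 genes 1 had an unadjusted p under 0.05 and edgeR called 0.

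In the docking complex, PEX13, the membrane protein that receives the loaded receptor, was at 934, 966 and 940.1 normalized counts in the controls and at 1095, 1109.7 and 1155 in the knockouts. All 3 knockout libraries were above all controls. The log2 fold change was 0.24 ± 0.07 (SE) with a limma adjusted p of 0.0503. It was 0.22 without the library labelled knockout replicate 3 (limma adjusted p = 0.0311). PEX13 also passed by the authors' adjusted p in their deposited table (0.033) and with limma on genes with a mean count of 100 or more (0.0406). It passed under 3 of 15 alternative settings, with adjusted p from 0.0311 to 0.256. Its partner PEX14, the initial docking site, was at 934, 841 and 731 against 730.2, 808 and 802 and overlapped between groups (log2 fold change -0.09, limma adjusted p = 0.554).

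The RING proteins PEX2 and PEX10 ubiquitinate the receptor so that it can be recycled. PEX2 was at 345, 345 and 351 normalized counts against 349, 351 and 289, close to level in all but the library labelled knockout replicate 3, which was lower (log2 fold change -0.08, limma adjusted p = 0.627). PEX10 was at 653, 609.6 and 598 against 579, 552 and 539. Every knockout library was below every control, by less than the test needed (log2 fold change -0.16, limma adjusted p = 0.217), and the sign turned, to 0.068, once the trends with GC content and length were removed. Neither had an unadjusted p under 0.05 and edgeR called 0 of them.

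PEX6, the ATPase subunit that extracts the spent receptor from the membrane, fell. It was at 1235, 1132 and 1046 normalized counts in the controls and 867, 776 and 809 in the knockouts. The highest knockout library was below the lowest control. The means were 1137 ± 94.7 and 817 ± 46.1 (SD, n = 3 libraries each), and the log2 fold change was -0.47 ± 0.09 (SE, 95% interval -0.67 to -0.28, limma adjusted p = 0.00844), or 0.72 times the control. Without control replicate 1 or control replicate 2 it missed the threshold, and its adjusted p ran from 0.000159 to 0.0536 over the 15 alternatives. The gene (ENSG00000124587) lies at chr6:42963870-42979220 on the minus strand of GRCh38 and overlaps GNMT on the other strand. GNMT had a control mean of 15.3 normalized counts. PEX26, which anchors the ATPase to the peroxisome, was at 2785, 2803 and 2801 against 2782, 2665 and 3277, with knockout values on both sides of the controls (log2 fold change 0.05, limma adjusted p = 0.717).

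Among the proteins that place membrane proteins, PEX19, the cytosolic chaperone that binds newly made ones, rose. It was at 2132, 2267 and 2351 normalized counts in the controls and 2827, 2791 and 2520.4 in the knockouts. All knockout libraries were above all controls, the library labelled replicate 3 by the least. The log2 fold change was 0.27 ± 0.08 (SE, 95% interval 0.10 to 0.44, limma adjusted p = 0.0427), which is 1.21-fold. This was the least stable of the calls: it was passed under 7 of 15 alternatives, with adjusted p from 0.00679 to 0.191. Among the settings that ended it were leaving out any of control replicates 1, 2 and 3 or knockout replicates 1 and 2, the edgeR test and TMM scaling. PEX19 (ENSG00000162735, chr1:160276812-160286348, minus strand) overlaps AL139011.2 on its own strand, so the counting could split its reads between them. PEX3, the membrane receptor for PEX19, was at 380.0, 396 and 412 against 435, 429.7 and 399, and the groups overlapped (log2 fold change 0.09, limma adjusted p = 0.505). PEX16, which recruits PEX3, was at 565, 503 and 441 against 346, 469.9 and 441 (log2 fold change -0.27 ± 0.13, limma adjusted p = 0.195). Its size was that of PEX19 with the other sign, but its libraries were more spread and overlapped, and its sign turned, to 0.030, with the trends on GC content and length and each library's mean removed.

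The PEX11 genes measured were low. PEX11A was at 121, 107 and 133 normalized counts against 126, 117 and 93 (log2 fold change -0.11, limma adjusted p = 0.66). PEX11G was at 17.4, 21.2 and 6.79 against 14.4, 13.9 and 13.6, and its control libraries spread more than the groups differed. The log2 fold change of PEX11G was 0.03, with a 95% interval of -0.83 to 0.88 that leaves changes of nearly that size undetectable at this depth. Neither had an unadjusted p under 0.05 and edgeR called 0.

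**Figure D2:**
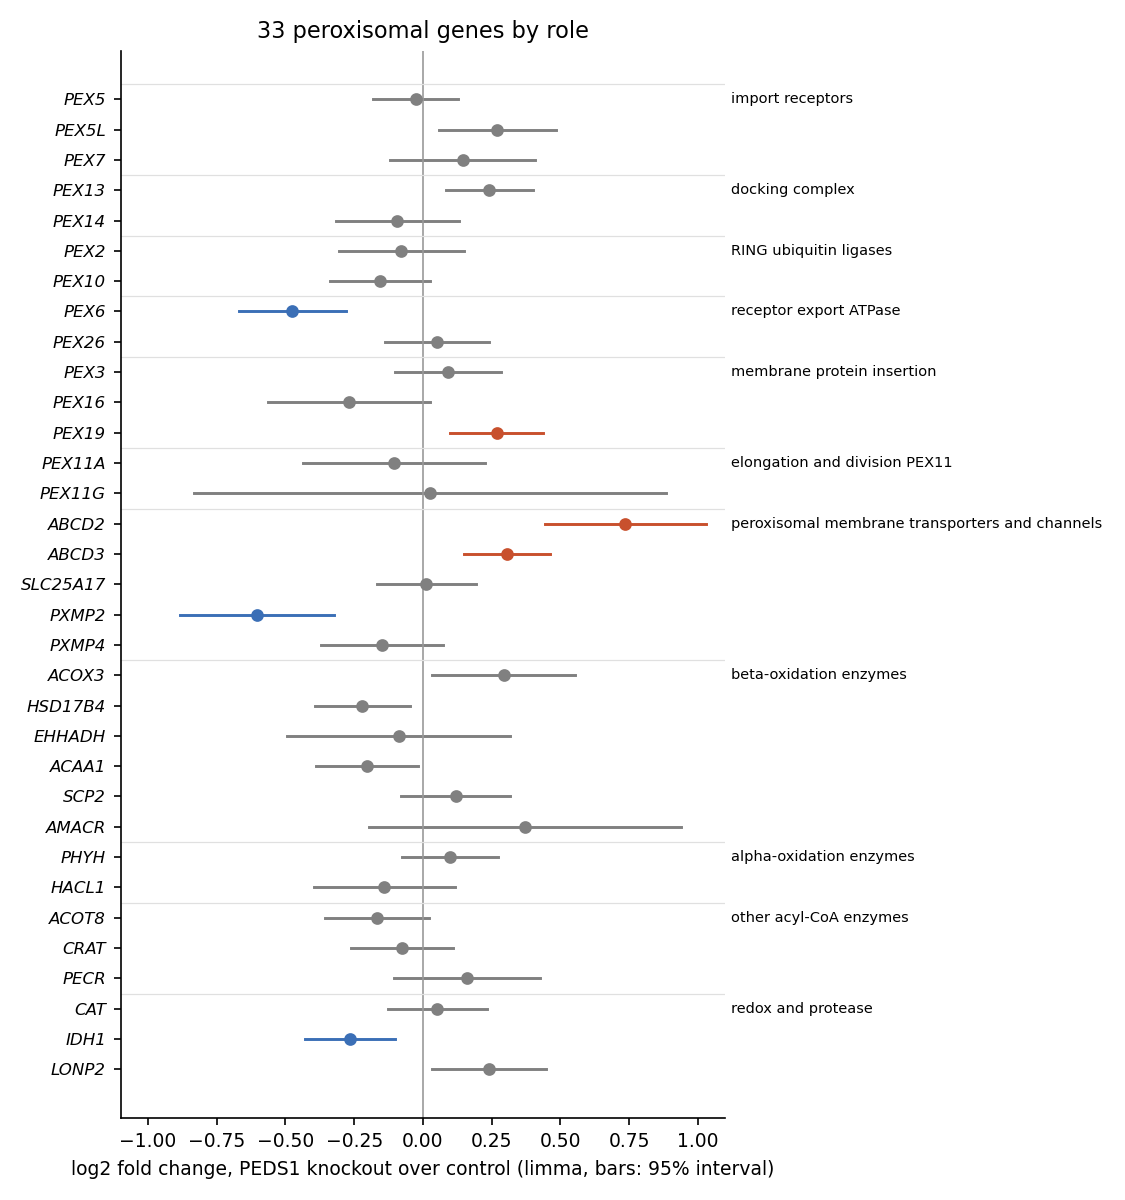
Log2 fold change of each of the 33 genes, knockout over control, from limma (horizontal axis), with bars for the 95% interval and genes ordered by role. Red marks the 3 genes that rose, blue the 3 that fell and grey the 27 that did not pass, and coloured genes stand in separate roles apart from the membrane transporters, which hold ABCD2, ABCD3 and PXMP2.

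The membrane transporters and channels held 3 of the 6 calls among 5 genes, in both directions. Over all genes 13.6% were called. ABCD2, an ABC transporter that brings very-long-chain and polyunsaturated acyl-CoA into the peroxisome, was at 101, 90.3 and 102 normalized counts in the controls and 157, 148 and 188 in the knockouts. Every knockout library was above every control, and the library labelled replicate 3 was highest. The means were 98.0 ± 6.73 and 164 ± 21.0 (SD, n = 3 libraries each), and the log2 fold change was 0.74 ± 0.13 (SE, 95% interval 0.44 to 1.03, limma adjusted p = 0.00739), which is 1.67-fold. ABCD2 passed under all 15 alternatives, with log2 fold changes of 0.54 to 0.81 and adjusted p of 0.000322 to 0.0461. It was 0.64 without the library labelled knockout replicate 3. ABCD2 (ENSG00000173208) lies at chr12:39550033-39619751 on the minus strand.

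ABCD3, the related transporter for branched-chain and dicarboxylic acids and an abundant protein of the peroxisomal membrane, rose by less. It was at 1505, 1514 and 1638 normalized counts in the controls and 1955, 1895 and 1902 in the knockouts. The 3 knockout libraries lay close together and above all controls. The means were 1552 ± 74.5 and 1917 ± 32.8 (SD, n = 3 libraries each), and the log2 fold change was 0.31 ± 0.07 (SE, 95% interval 0.15 to 0.46, limma adjusted p = 0.0212), which is 1.24-fold. It passed under 10 of 15 alternatives, with adjusted p of 0.00361 to 0.136, and the settings where it missed the threshold included those without control replicate 1 or 2 and without knockout replicate 1 or 2. ABCD3 (ENSG00000117528) lies at chr1:94418455-94518666 on the plus strand.

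PXMP2, a membrane protein that forms a channel for small solutes in mouse peroxisomes, fell. It was at 189, 172 and 191 normalized counts in the controls and 131, 128 and 104 in the knockouts. All knockout libraries were below all controls, the library labelled replicate 3 lowest. The means were 184 ± 10.7 and 121 ± 14.6 (SD, n = 3 libraries each), and the log2 fold change was -0.60 ± 0.13 (SE, 95% interval -0.88 to -0.32, limma adjusted p = 0.014), or 0.658 times the control. Without control replicate 1 or control replicate 2 it missed the threshold, with adjusted p of 0.00289 to 0.073 over the 15 alternatives. PXMP2 (ENSG00000176894) lies at chr12:132687606-132704991 on the plus strand.

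The other transporters did not pass. SLC25A17, the peroxisomal carrier of coenzyme A and other cofactors, was at 1187, 1199.8 and 1226 normalized counts against 1278, 1267 and 1105 (log2 fold change 0.01, limma adjusted p = 0.94). Knockout replicates 1 and 2 were above every control and the library labelled replicate 3 below. PXMP4, another peroxisomal membrane protein, was at 274, 293 and 321 against 266, 255 and 279 and overlapped between groups (log2 fold change -0.15, limma adjusted p = 0.327). With the trends on GC content and length removed, PXMP4 passed at -0.26 (limma adjusted p = 0.0449), the only alternative where it did.

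A promoter of ABCD2 and that of PXMP2, the genes with the highest and the lowest log2 fold change, are printed to show the sequence in front of each. Each run is the 250 bases before the annotated start in RefSeq (GRCh38.p14), 5′ to 3′ along the gene, and capitals mark CCAAT and GGGCGG on either strand. ABCD2 is chr12:39619804-39620053, minus strand, and PXMP2 is chr12:132687337-132687586, plus strand.
ABCD2: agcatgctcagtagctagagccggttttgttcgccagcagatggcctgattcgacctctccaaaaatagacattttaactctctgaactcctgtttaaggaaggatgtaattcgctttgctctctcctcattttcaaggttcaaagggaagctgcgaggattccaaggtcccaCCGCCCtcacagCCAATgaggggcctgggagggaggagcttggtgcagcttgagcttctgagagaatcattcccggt
PXMP2: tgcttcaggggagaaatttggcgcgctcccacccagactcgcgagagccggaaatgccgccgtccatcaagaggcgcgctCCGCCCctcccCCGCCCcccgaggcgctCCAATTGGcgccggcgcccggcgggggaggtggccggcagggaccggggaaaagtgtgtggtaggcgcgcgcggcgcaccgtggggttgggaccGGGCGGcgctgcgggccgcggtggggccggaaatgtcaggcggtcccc

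ABCD2 has 2 such windows in RefSeq, and the other one (chr12:39605508-39605757, inside the gene) is 35.2% G or C with 0 CpG and holds none of the motifs searched. The ABCD2 window printed is 50.8% G or C with 7 CpG, and that of PXMP2 is 74.8% with 34. The promoter of ABCD3, which rose, is 74.4% G or C with 34 CpG, close to that of PXMP2, which fell. RefSeq promoters were matched for 28 of the 33 genes (39 windows), with a median G or C content of 62%, against 58% over 35116 promoters. GGGCGG, the GC box, is in 27 of the 39 windows and in 42.6% of all promoters, and CCAAT is in 15 and in 32.0%. Windows of the same gene can share bases, as those of PEX19 do. Counted by gene, GGGCGG is in 22 of the 28 and CCAAT in 14. AGGTCA, the core motif of nuclear receptors, was found in 1 window (PXMP4) and in 12.1% of all promoters. CACGTG, the E-box shared by lysosomal gene regulators, was in 3 windows (PECR, PEX10 and PEX11G) and in 6.34% of all promoters. The NRF1 site and the PPAR-RXR direct repeat were in 0 of the 39 windows, and in 1.03% and 0.0171% of all promoters. All motifs were searched on both strands.

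Of the 6 beta-oxidation enzymes none passed with limma, edgeR or in the authors' deposited table, though 3 had an unadjusted p under 0.05, against 31.7% of all genes. The groups of 4 did not overlap (66.7%, against 37.1% of all genes). ACOX3 and AMACR were higher and HSD17B4 and ACAA1 lower in every knockout library. For AMACR the gap was narrow, from 15.04 in the highest control to 15.46 in the lowest knockout. ACOX3, an oxidase for branched acyl-CoA at the first step, was at 396, 384 and 366 normalized counts against 436, 420.4 and 560.4. The library labelled knockout replicate 3 stood well above the rest (log2 fold change 0.29, limma adjusted p = 0.117). ACOX3 passed under 1 of 15 alternatives, with adjusted p from 0.0345 to 0.279. HSD17B4, the D-bifunctional enzyme of the middle steps, was at 3701, 3695 and 3944 against 3509.7, 3252 and 2988. Its knockout libraries were all lower (log2 fold change -0.22, limma adjusted p = 0.085). After removal of the trend with transcript GC content and length in each library it passed at -0.28 (adjusted p = 0.00185, range over the 15 alternatives 0.00185 to 0.231).

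ACAA1, the thiolase of straight-chain substrates, was at 1401, 1399 and 1307 normalized counts against 1239, 1258 and 1079 (log2 fold change -0.20, limma adjusted p = 0.13). EHHADH, the L-bifunctional enzyme, was at 42.5, 36.3 and 33.3 against 33.7, 37.1 and 34 (log2 fold change -0.09, limma adjusted p = 0.772). EHHADH libraries overlapped throughout, while those of ACAA1 did not. SCP2, a thiolase for branched chains and a sterol carrier, was at 1278, 1302 and 1369.7 against 1535, 1502 and 1266. Knockout replicates 1 and 2 were above all controls and the library labelled replicate 3 below all of them, so with it the log2 fold change came to 0.12 (limma adjusted p = 0.386). It was 0.21 without it (adjusted p = 0.037, range over the 15 alternatives 0.037 to 0.684). AMACR, the racemase that prepares branched chains, was low at 12, 15 and 12.3 against 19.2, 15.5 and 17 (log2 fold change 0.37, limma adjusted p = 0.344). AMACR overlaps C1QTNF3-AMACR on its own strand, so the counting could split its reads between them.

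Alpha-oxidation removes a single carbon from phytanic acid before beta-oxidation. PHYH, its hydroxylase, was at 789, 832 and 836 normalized counts against 919.8, 886 and 827, and HACL1, its lyase, was at 236, 221 and 246 against 236, 218 and 186. Both overlapped between groups, with log2 fold changes of 0.10 and -0.14 (limma adjusted p = 0.418 and 0.427), and edgeR called 0 of them, with 0 at an unadjusted p under 0.05.

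The remaining acyl-CoA enzymes also gave 0 calls with limma and with edgeR, and 0 at an unadjusted p under 0.05. ACOT8, a thioesterase that frees fatty acids from coenzyme A, was at 1054, 975 and 905 normalized counts against 852, 918 and 841 (log2 fold change -0.17, limma adjusted p = 0.205). CRAT, the carnitine acetyltransferase that readies acetyl units for export, was at 2355, 2150.1 and 1944 against 1958, 2087 and 2055 (log2 fold change -0.08, limma adjusted p = 0.558). The control libraries of both genes spread as widely as the groups differed. With the trend on GC content and length removed, the sign of CRAT turned, to 0.14. PECR, a reductase of trans-2-enoyl-CoA, was at 169.9, 136 and 165 against 179.9, 175 and 170.1 (log2 fold change 0.16, limma adjusted p = 0.383), with control replicate 2 apart and no overlap.

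IDH1, which makes NADPH in the cytosol and in peroxisomes, was the gene of the 33 with the highest counts and fell. It was at 10639, 11358 and 11934 normalized counts in the controls and 9935, 9468 and 8829.5 in the knockouts. All knockout libraries were below all controls, the library labelled replicate 3 lowest. The means were 11310.4 ± 649 and 9411 ± 555 (SD, n = 3 libraries each), and the log2 fold change was -0.27 ± 0.07 (SE, 95% interval -0.43 to -0.10, limma adjusted p = 0.0408), or 0.832 times the control. It was passed under 10 of 15 alternatives, with adjusted p of 0.000408 to 0.178, and the settings that lost it included those without control replicate 1, 2 or 3 and without knockout replicate 2. IDH1 (ENSG00000138413, chr2:208236227-208266074, minus strand) overlaps IDH1-AS1 on the other strand.

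CAT, the catalase that destroys hydrogen peroxide, did not pass: it was at 426, 422 and 433 normalized counts against 454, 445 and 429.9 (log2 fold change 0.05, 95% interval -0.13 to 0.23, limma adjusted p = 0.688). LONP2, the matrix protease, was at 2808, 2933 and 3068 against 3220.1, 3229 and 4004. LONP2 was higher in every knockout library, most in the library labelled replicate 3 (log2 fold change 0.24, limma adjusted p = 0.112).

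The 6 genes that passed differ in base composition. The transcripts of ABCD2 and ABCD3 hold 34.3% and 37.7% G or C, those of PEX6 and PXMP2 61.8% and 57.6%, and those of IDH1 and PEX19 43.1% and 45.8%. All 6 still passed after the trend with GC content and length in each library was removed, with log2 fold changes of 0.54 for ABCD2, 0.19 for ABCD3, 0.19 for PEX19, -0.33 for IDH1, -0.29 for PEX6 and -0.44 for PXMP2. With those trends removed 9 of the 33 genes passed, 4 higher and 5 lower, against 19.1% of all genes, 7.65% higher and 11.4% lower.

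Per kilobase of the principal transcript, the control levels ranged over the 33 genes from 9.7 normalized counts for EHHADH to 4633 for IDH1. Next below IDH1 came HSD17B4 at 1408, PEX5 at 1026 and ACOT8 at 837 per kilobase. At the low end were ABCD2 at 15.7, AMACR at 15.2 and PEX11G at 14.3, whose order is within the spread of their libraries. The AMACR level may be understated, because its reads could be split with the gene that overlaps it. The median was 275 per kilobase, against 173 over all genes. IDH1 and HSD17B4 were first and next, and these 3 genes and EHHADH the last 4, also with the median transcript length of each gene. In the middle the order turns on the length chosen, above all for PEX26, whose principal transcript is 18445 bases long. In the knockout ABCD2 stood at 26.4 per kilobase, still below the control levels of 29 of the genes.

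**Figure D3:**
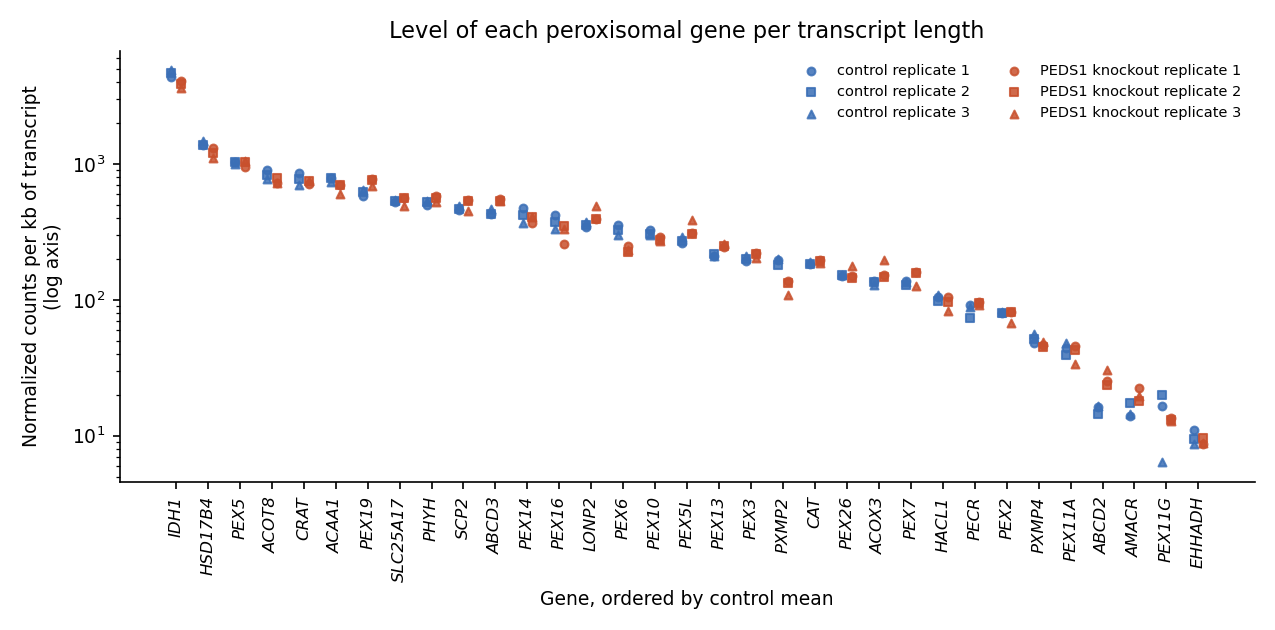
Normalized counts per kilobase of the principal transcript (vertical log axis) of the 33 genes in each of the 6 libraries, ordered by control mean. The level falls from 4633 for IDH1 to 9.7 for EHHADH, and the shift between blue and red points of a gene is small beside the range between genes.

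Around the 33 genes, 59 of 70 other genes listed for peroxisomes were measured, and 11 were not analysed here. Of the 59, 7 rose, 2 fell and 50 did not pass, which is 15.3% called. Of all genes 13.6% were called, 5.95% higher and 7.69% lower. The median log2 fold change of the 59 was 0.10, against -0.01 over all genes. With the trends on GC content and length removed it was 0.04, against -0.02 over all genes. Without the library labelled knockout replicate 3, 12 rose and 3 fell (25.4%, against 21.5% of all genes). Without control replicate 1 or 2, 2 passed (3.39%, against 3.75% and 3.5% of all genes).

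The ether lipid steps held 2 of the increases among 4 genes, and 2 did not pass, where 5.95% of all genes were called higher. FAR2, which reduces fatty acyl-CoA to the alcohol used for the ether bond, was at 90.4, 82.3 and 88.9 normalized counts in the controls and 215, 218 and 209 in the knockouts. Every knockout library was above every control by more than the whole control level (log2 fold change 1.28 ± 0.11, limma adjusted p = 0.000119, 2.44-fold). AGPS, which forms the ether bond inside the peroxisome, was at 3553, 3579 and 3897 against 4323, 4298 and 5161, again without overlap (log2 fold change 0.32 ± 0.09, limma adjusted p = 0.0381). FAR1, the related reductase, had far higher counts than FAR2 and did not pass. It was at 2087, 1967 and 2139 against 2254, 2017 and 2473, with overlap (log2 fold change 0.12, limma adjusted p = 0.373).

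Among 22 matrix enzymes 2 rose. NUDT12, which hydrolyses NADH and related nucleotides, was at 711, 689 and 666 normalized counts against 851, 827 and 869 (log2 fold change 0.30, limma adjusted p = 0.0285). NUDT19, which hydrolyses coenzyme A in mouse, was at 62.1, 84.9 and 83.9 against 121, 113 and 145 (log2 fold change 0.71, limma adjusted p = 0.0206). Neither pair of groups overlapped.

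Among 20 genes of division, tethering and turnover, related acyl-CoA-binding tethers to the endoplasmic reticulum moved apart. ACBD5 rose, from 2149, 2196 and 2299 to 2722, 2590.4 and 2809.7 (log2 fold change 0.29, limma adjusted p = 0.0242), and ACBD4 fell, from 267, 233 and 207 to 151, 182 and 174 (log2 fold change -0.47, limma adjusted p = 0.0362). In both the groups were separate.

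Among 10 PPAR and PGC-1 regulators, PPARGC1A, the coactivator PGC-1α, rose from 767, 764 and 776 normalized counts to 927, 938 and 1270.4 (log2 fold change 0.43, limma adjusted p = 0.039). RXRB, a partner of nuclear receptors, fell from 2044, 2004 and 2043 to 1804, 1713 and 1542 (log2 fold change -0.27, limma adjusted p = 0.0446). The library labelled knockout replicate 3 was the extreme one in both. Of 3 acyl-CoA synthetases 1 rose: ACSL1, which activates long-chain fatty acids, went from 3351, 3382 and 3526 to 4604, 4544 and 4537 (log2 fold change 0.42, limma adjusted p = 0.00343). With the trends on GC content and length removed, FAR2, NUDT19, ACBD5 and ACSL1 still passed, while NUDT12, ACBD4, AGPS, PPARGC1A and RXRB did not, with adjusted p from 0.0649 to 0.176.

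**Figure D4:**
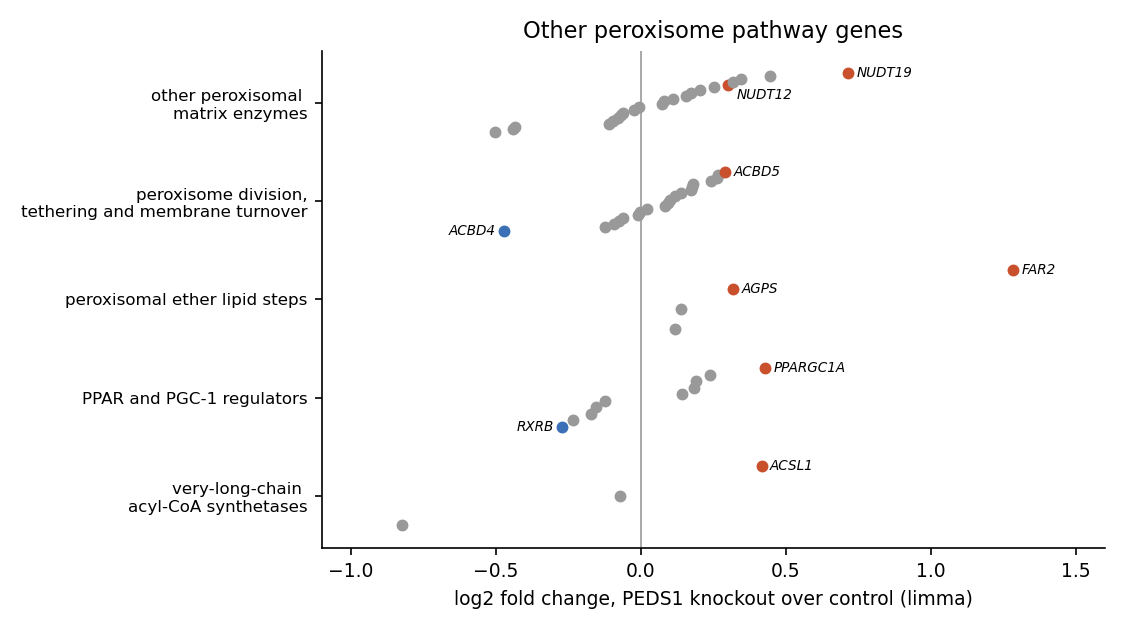
Log2 fold change, knockout over control (horizontal axis), of the 59 other peroxisome genes, with 1 point for each gene in rows by list, where height within a row only separates points. The 9 named genes passed the test, 7 higher in red and 2 lower in blue, and FAR2 lies farthest right at 1.28.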

How the data were processed

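PolyA RNA of 6 libraries was sequenced as stranded single-end 100 bp reads, per the labels' protocols. STAR 2.7.10b, DESeq2 and GRCh38 are named in the submitters' processing notes. The counting tool, its use of strand and its annotation were not given in the sources used here. What the authors deposited is a signal, the normalized count: each gene's reads scaled by a size factor of the library. Undoing that scaling gave whole reads for 100% of values (tolerance 1e-06) and library totals of 17996634 to 44573013. The authors' deposited table also gives, per gene, log2 fold change, p-value and adjusted p-value.

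Groups came from the sample titles. Because the sheet holds normalized values, limma 3.58.1 (R 4.3.3) fitted genotype to log2(normalized count + 1) in all 6 libraries, with empirical Bayes moderation (variance trend on). P-values were adjusted by Benjamini-Hochberg over 16625 genes, with a threshold of 0.05. This scale understates the change of low genes. Levels per kilobase, GC content and overlaps used GENCODE 29 transcripts (96.5% of genes). The code was tested on simulated data. The members, lists and tests were chosen with earlier results of these data known. All 33 genes were named, with values by library. Of the other lists, genes past the test were named, and FAR1 beside FAR2. Alternatives were the authors' adjusted p-values, edgeR 4.0.16 on the recovered reads, TMM scaling, pseudocounts of 0.5 and 5, a mean count of 100 or more, a replicate block, removal of GC and length trends (splines with 4 degrees of freedom) and leaving out each library. Removal with each library's mean was added after seeing the data. Every pair of replicates differed beyond sampling noise (chi-square per gene 2.67 to 32.3), so no library was treated as a duplicate.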

Additional observations from a re-analysis of the deposited data

How the results depend on the processing

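Depth limits the low genes most, and p-values rest on 3 libraries a group. Of 492 single-gene results over the 33 genes and 15 alternatives, 434 kept their direction and their side of the threshold, 22 lost the call, 8 gained one and 28 turned sign. Of the turned ones CRAT alone passed the test after turning, from -0.08 to 0.14 with the GC and length trends removed and to 0.18 with each library's mean removed as well. Under these 2 settings, in that order, PEX5 turned to 0.077 and 0.11, PEX14 to 0.13 and 0.17, PEX10 to 0.068 and 0.11, PEX26 to -0.16 and -0.12, ACOT8 to 0.026 and 0.064 and SLC25A17 to -0.049 and -0.011, while PEX16 turned to 0.030 under the last. SLC25A17 also turned to -0.0010 with edgeR and -0.0036 with TMM scaling, and PEX11G to -0.077 in the authors' deposited table, -0.033 with edgeR and -0.0067 with a pseudocount of 5. Leaving out 1 library turned the sign of some genes, at 1 or 2 libraries each, with values from -0.055 to 0.016 for PEX5, -0.13 to 0.013 for PEX2, -0.19 to 0.023 for PEX11A, -0.43 to 0.32 for PEX11G, -0.038 to 0.11 for PEX26, -0.025 to 0.080 for SLC25A17 and -0.17 to 0.0051 for EHHADH. Of the 33 genes 6 passed in the limma test (13.6% of all genes), 7 by the authors' adjusted p-values (16.3%), 5 with edgeR (13.5%), 5 with TMM scaling (13.4%), 6 with a pseudocount of 0.5 or 5 (13.6% and 13.8%) and 9 with the GC and length trends removed (19.1%). Calls among the PEX genes, 2 with limma, were 1 with edgeR and 1 with TMM scaling. Calls among the transporters and enzymes, 4 with limma, were 7 with the trends removed, with or without centring. Leaving out 1 library gave 1 to 8 of the 33 genes, 0 to 3 of the PEX genes, 1 to 5 of the transporters and enzymes, 2 to 15 of the 59 other peroxisome genes and 582 to 3577 of all genes. The lowest numbers came without control replicate 1 or 2, where 0 PEX genes passed with limma and 3 had an unadjusted p under 0.05, and the highest without the library labelled PEDS1 knockout replicate 3. With the replicate block 3 of the 33 genes passed, 1 of the PEX genes, 2 of the transporters and enzymes and 5 of the 59 other genes, beside 1560 of all genes (9.38%), and it ended the calls of ABCD3 (adjusted p = 0.0523), PEX19 (0.0849) and IDH1 (0.08). Deviations of same-numbered libraries correlated at -0.3, 0.0971 and -0.0492, and those of differently numbered libraries at -0.219 to 0.267. These values show no pairing by number but cannot establish that there was none, and no paired design was taken. The cause of these differences was not tested.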
